A study of Mus musculus with 7 samples.

Results

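Smooth muscle actin (SMA) was 1 of the 25 target proteins that antibodies read around vascular amyloid in the brains of PDAPP mice, and it was followed here by treatment, by site, from region to region within a mouse, and against the 24 other targets. PDAPP mice carry a human amyloid precursor protein with a mutation of familial Alzheimer's disease and were bred as an inbred colony. Of the 7 mice, 4 were given 3D6, an IgG2b antibody to amyloid-β (25 mg/kg, 1 subcutaneous injection each week), and 3 were given IgG, an IgG2a isotype control (50 mg/kg, 2 injections each week). The mice, of both sexes and not labelled by sex, were 23 to 26 months old and were treated for 3 months. Antibody class, dose and number of injections thus differed between the groups along with the target of the antibody. Fixed coronal sections, 5 μm thick by the sample labels and 10 μm by the study's methods, were profiled on the GeoMx instrument. In this assay ultraviolet light releases the DNA tags of bound antibodies from a chosen region, and the tags are counted. Regions were circles of 100 μm placed on vessels that stained for amyloid and laminin, regions 1 to 12 in the leptomeninges and 13 to 24 on penetrating vessels.

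SMA, the product of the gene Acta2 (chromosome 19, 34240336 to 34255585, GRCm38.p6), is the actin of the contractile apparatus of vascular smooth muscle cells. It is abundant in the media of arteries and arterioles, lower in venous walls, and low or absent in most capillary pericytes, and activated fibroblasts can also make it. In cerebral amyloid angiopathy, amyloid is laid down between the smooth muscle cells of leptomeningeal and cortical arteries, and those cells are lost as the deposits grow. A region held all cells inside its circle, so fewer smooth muscle cells and less SMA per cell cannot be told apart in these values.

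The regions with values numbered 48 in the leptomeninges of 3D6 mice and 34 in those of IgG mice, and 48 and 36 on penetrating vessels. SMA was not a sparse probe. The median leptomeningeal region held 3649 counts in 3D6 mice and 18284 in IgG mice, the median penetrating region 1849 and 2892, and each of the 166 regions lay above its negative controls. SMA is given below as a log2 ratio, its count over the geometric mean of the 3 negative controls of the region, the isotype antibodies Rb IgG, Rt IgG2a and Rt IgG2b. A value of 0 is the level of non-specific binding, and 1 unit is a doubling. The mouse was the replicate. The warning for few nuclei was carried by 7 of 48 leptomeningeal regions in 3D6 mice and 19 of 34 in IgG mice, and the 19 included all 10 of IgG mouse 37. In 6 regions, all of IgG mouse 37, the negative controls exceeded 10 times the median of their site.

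SMA was lower around leptomeningeal amyloid of 3D6 mice. The mean over regions was 7.65 in mouse 72, 7.02 in mouse 77, 7.91 in mouse 81 and 8.87 in mouse 83 of the 3D6 group, against 9.79 in mouse 29, 9.40 in mouse 37 and 9.79 in mouse 49 of the IgG group. All 4 3D6 mice lay below all 3 IgG mice, and the 3D6 mice stood further apart from each other (SD 0.77, n = 4) than the IgG mice did (SD 0.22, n = 3). Of the 25 targets, 24% had groups that did not overlap in this way. The log2 difference was -1.79 (standard error 0.43, 95% interval -2.74 to -0.85), or 0.289 times the IgG level, with an adjusted p of 0.0110 in limma over the 25 targets, where 20% of the targets passed. Exact permutation of the mice, with 35 possible splits, gave p = 0.0571, against a smallest possible p of 0.0286. The call was lost without IgG mouse 29 (-1.73, adjusted p = 0.0622 in limma) and when the variance of SMA was not moderated by the other targets (adjusted p = 0.0757).

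**Figure D1:**
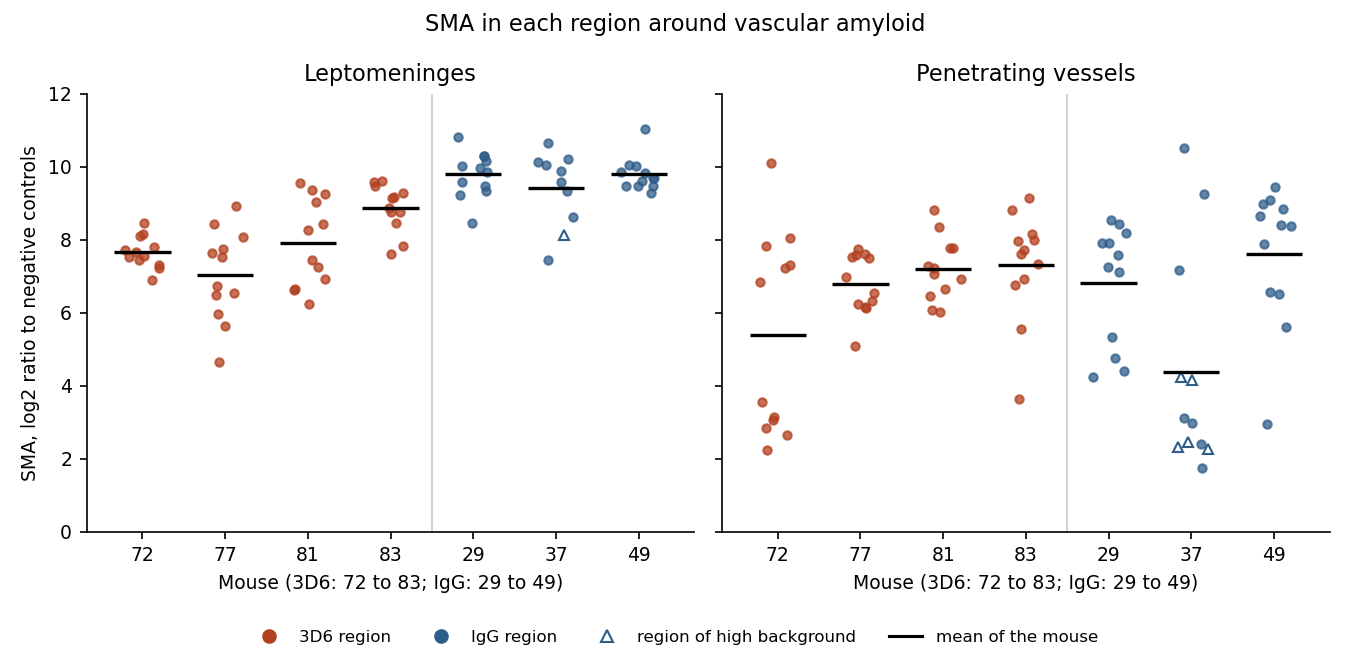
SMA in every region (points), as the log2 ratio to the negative controls, by mouse for the leptomeninges (left panel) and penetrating vessels (right panel), with the 4 3D6 mice left of the 3 IgG mice and a bar at the mean of each mouse. Open triangles are the 6 regions of high background. The means of the IgG mice lie above those of the 3D6 mice in the leptomeninges. The penetrating regions of 3D6 mouse 72 and IgG mouse 37 are split into a low and a high set, and those of IgG mouse 29 by a narrower gap.

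Both ends of the range of regions lay lower in 3D6 mice. Single leptomeningeal regions had a lowest value of 4.65, a median of 7.78 and a highest value of 9.59 in 3D6 mice, against 7.45, 9.76 and 11.04 in IgG mice. None of the 48 regions of 3D6 mice (0 of 48) reached the median region of IgG mice, and 16 of 48 lay below the lowest of them. In the other direction, 20 of 34 regions of IgG mice lay above the highest region of 3D6 mice. These regions share 7 mice, so their counts are a description.

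The highest region of each mouse averaged 9.13 ± 0.54 (SD, n = 4) in 3D6 mice and 10.8 ± 0.21 (SD, n = 3) in IgG mice, a difference of -1.70. The median region differed by -1.88 and the lowest region by -2.05. The groups did not overlap for the highest and the median region, and overlapped for the lowest. None of the 3 differences passed the exact permutation test after adjustment over 6 comparisons (p = 0.0286, 0.0571 and 0.0857 before adjustment, adjusted p = 0.171 for each).

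SMA also took up less of the signal of a leptomeningeal region in 3D6 mice. In the median region of a mouse it made up 27.2%, 21.1%, 22.6% and 43.5% of all counts in 3D6 mice 72, 77, 81 and 83, against 65.0%, 73.8% and 78.5% in IgG mice 29, 37 and 49. The groups did not overlap, and the difference of the means was -43.8 percentage points (exact permutation test, p = 0.0286, the smallest possible). This share needs no negative control, but it also moves with every other probe in the region.

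The divisor and the number of nuclei were set beside SMA at this site. The negative controls, by which SMA was divided, were lower in 3D6 mice by 0.61 on the log2 scale (3.84 ± 0.39, n = 4, against 4.46 ± 0.19 in IgG mice, SD, n = 3; exact permutation test, p = 0.0571), and a lower divisor raises the ratio. Without the division the difference in SMA was -2.40, and with division by the housekeepers Histone H3, S6 and GAPDH it was -2.63. The log2 number of nuclei averaged 5.28 ± 0.94 in 3D6 mice and 4.72 ± 1.59 in IgG mice (SD), which overlapped (exact permutation test, p = 0.514). Divided further by the nuclei of each region, SMA differed by -2.35, and this value did not pass (unadjusted p = 0.0257, adjusted p = 0.592 in limma). Under this division 0 of 25 targets passed. The median number of nuclei was 111.5 in 3D6 mouse 72 and 97 in IgG mouse 29, and 11 to 36.5 in the other mice. Mice 72 and 29 shared a readout run, and they alone carried the label scan2. Within the 3 readout runs the difference in SMA was -1.39, -2.37 and -2.14.

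On penetrating vessels the groups overlapped. The mean of SMA was 5.40, 6.78, 7.20 and 7.29 in 3D6 mice 72, 77, 81 and 83, against 6.80, 4.38 and 7.61 in IgG mice 29, 37 and 49. The lowest mouse of each group, 3D6 mouse 72 and IgG mouse 37, had regions at a low and a high level. The difference was 0.40 (standard error 0.77, 95% interval -1.35 to 2.15, adjusted p = 0.802 in limma). Of the 25 targets, 0% passed in limma (0 of 25, and 2 at an unadjusted p under 0.05), and 12% had groups that did not overlap. The sign turned without IgG mouse 37 (-0.54), and within the readout runs the difference was -0.36, 2.40 and -1.40.

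Pooled over mice, the penetrating regions of the 2 groups covered nearly the same range. The lowest, median and highest region were 2.23, 7.14 and 10.1 in 3D6 mice, against 1.74, 7.13 and 10.5 in IgG mice, and 24 of 48 regions of 3D6 mice lay above the median region of IgG mice. In each group both ends came from 1 mouse, 3D6 mouse 72 and IgG mouse 37. Regions ran from 5.08 to 7.74, 6.03 to 8.81 and 3.62 to 9.13 in 3D6 mice 77, 81 and 83. They ran from 4.23 to 8.54 and 2.96 to 9.44 in IgG mice 29 and 49. The regions share 7 mice, so these values are a description. In 3D6 mouse 72 the values broke at a gap of 3.30, with 6 regions at 3.54 or below and 6 at 6.84 or above. A narrower gap of 1.78 in IgG mouse 29 parted 4 regions at 5.33 or below from 8 at 7.10 or above. The largest gap of 3D6 mouse 83 (1.93) and of IgG mouse 49 (2.65) set 1 low region apart. In IgG mouse 37 a gap of 2.92 separated 9 regions at 4.24 or below from 3 at 7.17 or above. Of those 9 regions, 5 were regions of high background. Without these 5 the mean of the mouse was 5.31 instead of 4.38, its lowest and highest regions were as before, and the difference between the groups was 0.09 (standard error 0.60).

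SMA was higher in the leptomeninges than on penetrating vessels in each of the 7 mice. The leptomeningeal mean exceeded the penetrating mean by 2.25, 0.25, 0.72 and 1.58 in 3D6 mice 72, 77, 81 and 83, and by 2.99, 5.02 and 2.18 in IgG mice 29, 37 and 49. In 3D6 mouse 77 the 2 sites were nearly level, at a 1.19-fold difference, and in IgG mouse 37 they were 32.4-fold apart. With the groups weighted equally the difference was 2.30 (standard error 0.35, 95% interval 1.52 to 3.07), or 4.91-fold, with an adjusted p of 0.00054 in limma, where 52% of the targets passed. The exact test over all 128 sign changes of the 7 differences gave p = 0.0156, the smallest it can give. SMA, CTLA4 and Fibronectin were the targets that were higher in the leptomeninges of every mouse (12% of the 25).

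The contrast between the sites was smaller in 3D6 mice. It was 1.20 ± 0.89 (SD, n = 4) in 3D6 mice and 3.39 ± 1.46 (SD, n = 3) in IgG mice. Taken alone, the contrast had an adjusted p of 0.0783 in 3D6 mice and 0.00204 in IgG mice in limma, where 28% and 36% of the targets passed. The contrast in 3D6 mice passed under 9 of 21 alternatives, among them leaving out the regions of high background (1.20, adjusted p = 0.0267 in limma), and its adjusted p ranged from 0.00266 to 0.323. The treatment difference of the leptomeninges minus that of the penetrating vessels was -2.20 (standard error 0.69, 95% interval -3.74 to -0.65, adjusted p = 0.0417 in limma), and 28% of the targets passed this test. SMA was the single one of these 7 targets with a negative value. The mice overlapped in the contrast between 3D6 mouse 72, at 2.25, and IgG mouse 49, at 2.18 (exact permutation test, p = 0.0857). The call was lost when any of 3D6 mice 77, 81 and 83 or IgG mice 29 and 37 was left out (adjusted p = 0.0641 to 0.0954 in limma), and without IgG mouse 37 the value was -1.38. It was also lost with the readout run as a block (-2.06, adjusted p = 0.0827 in limma). Within the readout runs it was -1.03, -4.77 and -0.74.

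**Figure D2:**
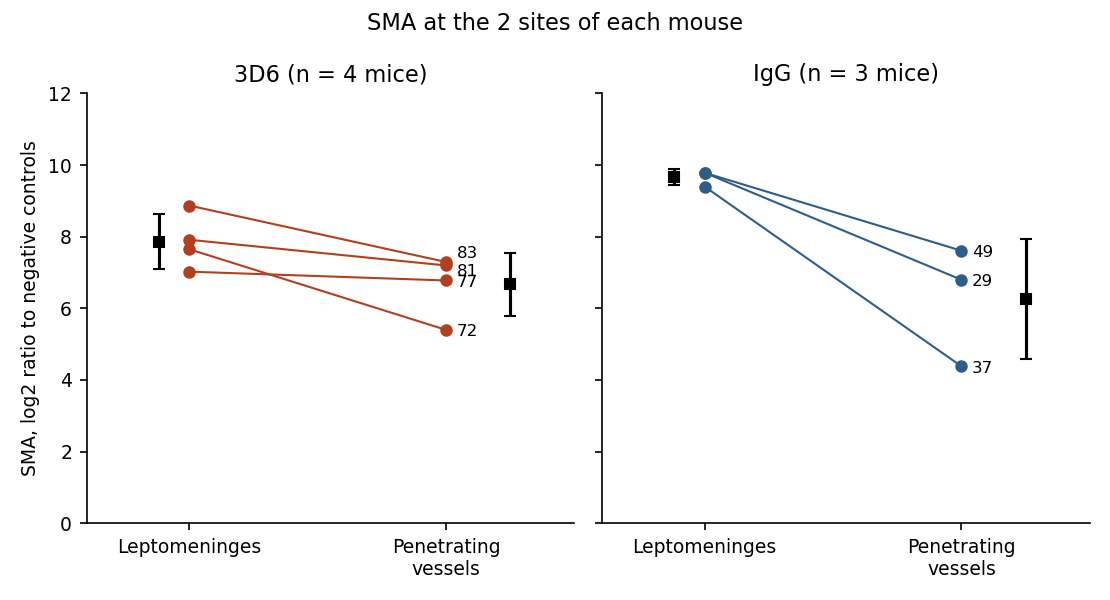
Mean SMA of each mouse (log2 ratio to the negative controls) in the leptomeninges and on penetrating vessels, joined by a line, with 3D6 mice in the left panel and IgG mice in the right panel. Black squares and bars are the mean and SD of the mice. Every line falls to the right, by 0.25 to 2.25 in 3D6 mice and by 2.18 to 5.02 in IgG mice.

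Within a mouse, the 2 sites overlapped more in the 3D6 group. In 3D6 mice 72, 77, 81 and 83, 5, 12, 10 and 7 of 12 penetrating regions lay above the lowest leptomeningeal region of the same mouse. In IgG mice 29, 37 and 49 these numbers were 1, 2 and 1 of 12. This count depends on a single region per mouse, was made for SMA alone and was not tested. Counted against the median leptomeningeal region, the numbers were 3, 5, 2 and 1 of 12 in the 3D6 mice and 0, 1 and 0 of 12 in the IgG mice, and the groups met at 1.

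The spread from region to region was measured as the SD of the log2 ratio over the regions of a mouse. In the leptomeninges it was 0.44, 1.25, 1.20 and 0.65 in 3D6 mice 72, 77, 81 and 83, against 0.62, 1.02 and 0.46 in IgG mice 29, 37 and 49. The groups overlapped: mouse 72 had the tightest regions of all, and mice 77 and 81 the widest. The difference on the scale of log2 SD was 0.29 (standard error 0.37, 95% interval -0.52 to 1.09, adjusted p = 0.633 in limma). At this site 16% of the targets passed, all of them more spread in 3D6 mice, and SMA was not among them.

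On penetrating vessels the SD of SMA was 2.73, 0.83, 0.86 and 1.49 in 3D6 mice 72, 77, 81 and 83, against 1.64, 2.96 and 1.89 in IgG mice 29, 37 and 49. Of the 4 3D6 mice, 3 were tighter than every IgG mouse and mouse 72 was not. From its lowest to its highest region SMA spanned 6.31-fold in mouse 77 and 6.90-fold in mouse 81, but 232.6-fold in mouse 72, and it spanned 19.9-fold in IgG mouse 29 and 438-fold in IgG mouse 37. The difference in log2 SD was -0.68 (standard error 0.39, 95% interval -1.51 to 0.15, adjusted p = 0.508 in limma; 4% of the targets passed), and with the median absolute deviation in place of the SD it was 0.11.

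SMA had the largest mean SD of the 25 targets on penetrating vessels, 1.77 over the 7 mice, and the fifth in the leptomeninges, 0.80. In 5 of 7 mice the leptomeningeal SD was the smaller, the exceptions being 3D6 mice 77 and 81. The difference between the sites in log2 SD was -1.18 (standard error 0.31, 95% interval -1.86 to -0.50, adjusted p = 0.0581 in limma). None of the 25 targets passed this test in limma (0%, with 3 at an unadjusted p under 0.05), and the exact test over sign changes gave p = 0.0625. SMA passed under 7 of 19 alternatives, and the adjusted p in limma reached 0.278 in the others. It passed once the 6 regions of high background were left out (-1.24, adjusted p = 0.0251 in limma). It also passed without 3D6 mouse 77, 3D6 mouse 81 or IgG mouse 29. With the housekeepers as divisor the difference was -0.60 (adjusted p = 0.188 in limma).

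**Figure D3:**
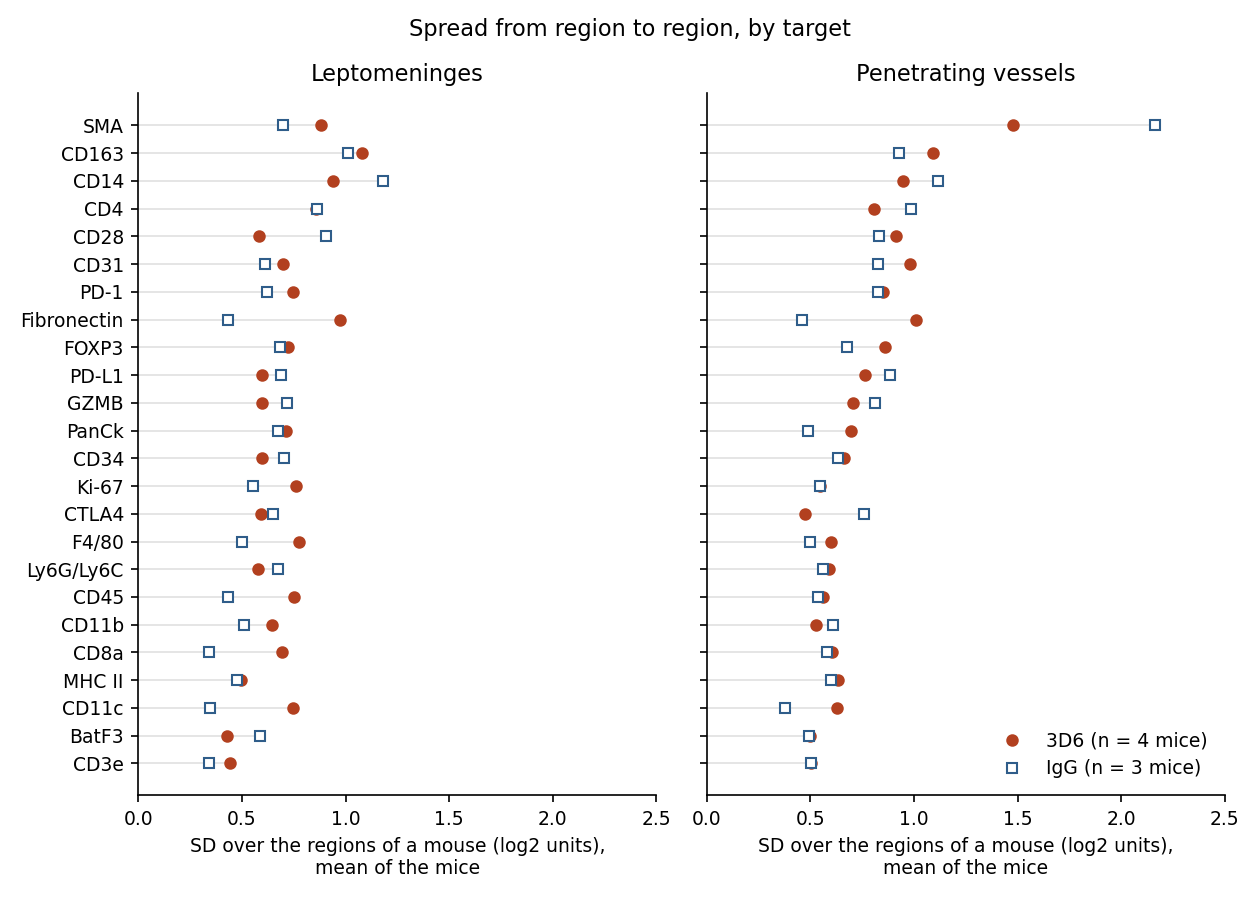
SD of the log2 ratio over the regions of a mouse, averaged over the mice of a group, by target, in the leptomeninges (left panel) and on penetrating vessels (right panel). Filled circles are 3D6 mice (n = 4) and open squares are IgG mice (n = 3). SMA is the widest target on penetrating vessels, at 1.48 in 3D6 mice and 2.16 in IgG mice, and is not set apart in the leptomeninges, at 0.88 and 0.70.

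No other vessel wall or matrix target was called lower in 3D6 mice. CD31, the adhesion molecule of endothelial cells, had a leptomeningeal difference of 0.95, 3D6 minus IgG (standard error 0.39, adjusted p = 0.0923 in limma) and by -0.07 on penetrating vessels. CD34, a sialomucin of endothelial and progenitor cells, differed by 0.17 and -0.39. Fibronectin, a glycoprotein of the extracellular matrix, was 2.64 higher in the leptomeninges of 3D6 mice (standard error 0.49, adjusted p = 0.00327 in limma). Its treatment difference of the leptomeninges minus that of the penetrating vessels, 2.06, had the opposite sign to that of SMA and also passed (adjusted p = 0.0177 in limma). Between the sites themselves Fibronectin, like SMA, was higher in the leptomeninges of 7 of 7 mice. Of these 3 companions, 1 passed in the leptomeninges, where it was higher, beside 20% of all targets, and 0 passed on penetrating vessels, beside 0% of all targets.

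Within a mouse, SMA and CD31 went together from region to region. Pearson's r between SMA and each other target was computed on log2 ratios centred on the mean of their mouse, separately for each site and group. The regions of a mouse share sections, readout and the negative controls in both ratios, so each r is a description without a p-value. For CD31, r was 0.30 in the leptomeninges of 3D6 mice and 0.46 in those of IgG mice, and 0.41 and 0.73 on penetrating vessels. It was above 0 in 7 of 7 mice at each site. In the leptomeninges the r of single mice was 0.71, 0.55, 0.01 and 0.25 in 3D6 mice 72, 77, 81 and 83, against 0.49, 0.57 and 0.43 in IgG mice 29, 37 and 49. CD34, the other endothelial target, ranged from -0.26 to 0.13.

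CTLA4, an inhibitory receptor of activated and regulatory T cells, was the target whose pattern was most like that of SMA over all 166 regions (r = 0.50 with the mean of each mouse and site subtracted), followed by CD31 (0.48) and, at a distance, CD8a (0.17), a chain of the co-receptor of cytotoxic T cells. On penetrating vessels the r with CTLA4 was 0.33, 0.73, 0.57 and 0.60 in 3D6 mice 72, 77, 81 and 83, against 0.58, 0.92 and 0.66 in IgG mice 29, 37 and 49, and was above 0 in every mouse. In the leptomeninges it was 0.14, 0.38, 0.00 and -0.35 in the 3D6 mice, against 0.58, 0.64 and 0.76 in the IgG mice. The groups did not overlap there, nor did they for CD8a (-0.62 to 0.32 in 3D6 mice, 0.48 to 0.63 in IgG mice). At this site limma called 0 of 24 partners for a difference of r between the groups. Over the centred regions, the leptomeningeal r with CTLA4 was 0.09 in 3D6 mice (48 regions) and 0.64 in IgG mice (34 regions). Pooled without centring, it was 0.26 and 0.44. CTLA4 itself was far less abundant than SMA, with median counts of 51.7 in the leptomeninges of 3D6 mice and 115 in those of IgG mice, or 3.61 and 6.57 times the negative controls.

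**Figure D4:**
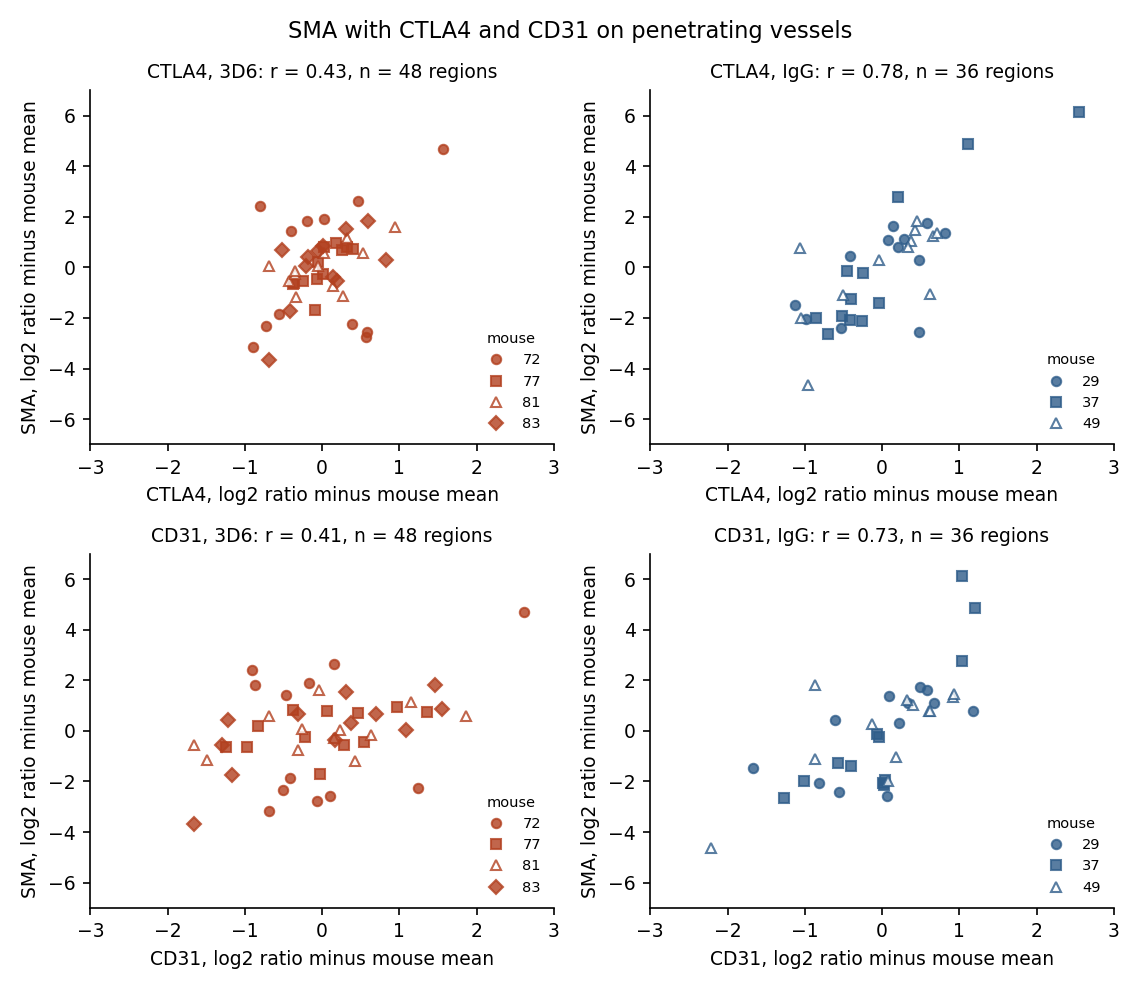
SMA (vertical axes) against CTLA4 (top row) and CD31 (bottom row) in single penetrating-vessel regions, as log2 ratios minus the mean of the mouse, with 3D6 mice on the left and IgG mice on the right and 1 symbol per mouse. The points of IgG mice rise together (r = 0.78 for CTLA4 and 0.73 for CD31 over 36 regions), and those of 3D6 mice do so more loosely (0.43 and 0.41 over 48 regions).

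The 2 most extreme regions carried part of these values. Without the 2 regions whose SMA lay farthest from its median, the r with CTLA4 on penetrating vessels was 0.20 in 3D6 mice and 0.66 in IgG mice, and the r with CD31 was 0.18 and 0.65. In the leptomeninges of IgG mice it was 0.61 for CTLA4 and 0.42 for CD31. With the 6 regions of high background left out, the r on penetrating vessels of IgG mice was 0.78 for CTLA4 and 0.77 for CD31.

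Among the T-cell targets given in detail, and for Ki-67, the relations ran both ways. In the leptomeninges, CD8a had an r of -0.21 in 3D6 mice, above 0 in 1 of 4, against 0.49 in IgG mice, above 0 in 3 of 3. Its level there was close to the negative controls, at 1.27 times in 3D6 mice and 1.19 times in IgG mice. Ki-67, a nuclear protein of dividing cells, had a leptomeningeal r of 0.00 in 3D6 mice, against 0.63 in IgG mice, and it too lay at the negative controls, at 1.09 and 0.74 times their level. For CD28, a co-stimulatory receptor on T cells, r was -0.20 in 3D6 mice and -0.42 in IgG mice in the leptomeninges, and -0.19 and -0.43 on penetrating vessels. CD4, the co-receptor of helper T cells, ranged from -0.24 to 0.05. FOXP3, the transcription factor of regulatory T cells, was among the most negative partners on penetrating vessels, at -0.40 in 3D6 mice and -0.45 in IgG mice, but had an r of 0.24 in the leptomeninges of 3D6 mice. CD28, CD4 and FOXP3 all lay below the negative controls, at medians under 9 counts per region.

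Ly6G/Ly6C, an antigen of neutrophils and monocytes, was lower in penetrating regions with more SMA. Its r was below 0 in all 7 mice, at -0.62, -0.40, -0.30 and -0.17 in 3D6 mice 72, 77, 81 and 83, against -0.31, -0.67 and -0.37 in IgG mice 29, 37 and 49. In the leptomeninges the sign of Ly6G/Ly6C was mixed, with r at -0.15 in 3D6 mice and -0.32 in IgG mice. With the housekeepers as divisor its r on penetrating vessels was -0.03 in 3D6 mice and -0.33 in IgG mice. CD11c, a myeloid target, was also below 0 on penetrating vessels in all 7 mice (r = -0.36 in 3D6 mice and -0.13 in IgG mice). The lowest r on penetrating vessels of 3D6 mice was that of BatF3 (-0.51), a transcription factor of cross-presenting dendritic cells, followed by CD3e (-0.40), a chain of the T-cell receptor complex. CD45, the phosphatase of all leukocytes, and F4/80, a glycoprotein of mouse macrophages, had values between -0.24 and 0.12 with 1 exception, F4/80 on penetrating vessels of IgG mice (0.39, above 0 in 3 of 3 mice). In the leptomeninges the most negative partners of 3D6 mice were PD-L1, the ligand of PD-1 (-0.40, below 0 in 4 of 4 mice), BatF3 (-0.36) and CD163, the haemoglobin scavenger receptor of macrophages (-0.32). In IgG mice they were CD28 (-0.42) and CD163 (-0.38). CD163 lay below the negative controls at this site, at 0.60 times their level in 3D6 mice and 0.91 times in IgG mice. With the housekeepers as divisor its r was 0.04 and 0.06.

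**Figure D5:**
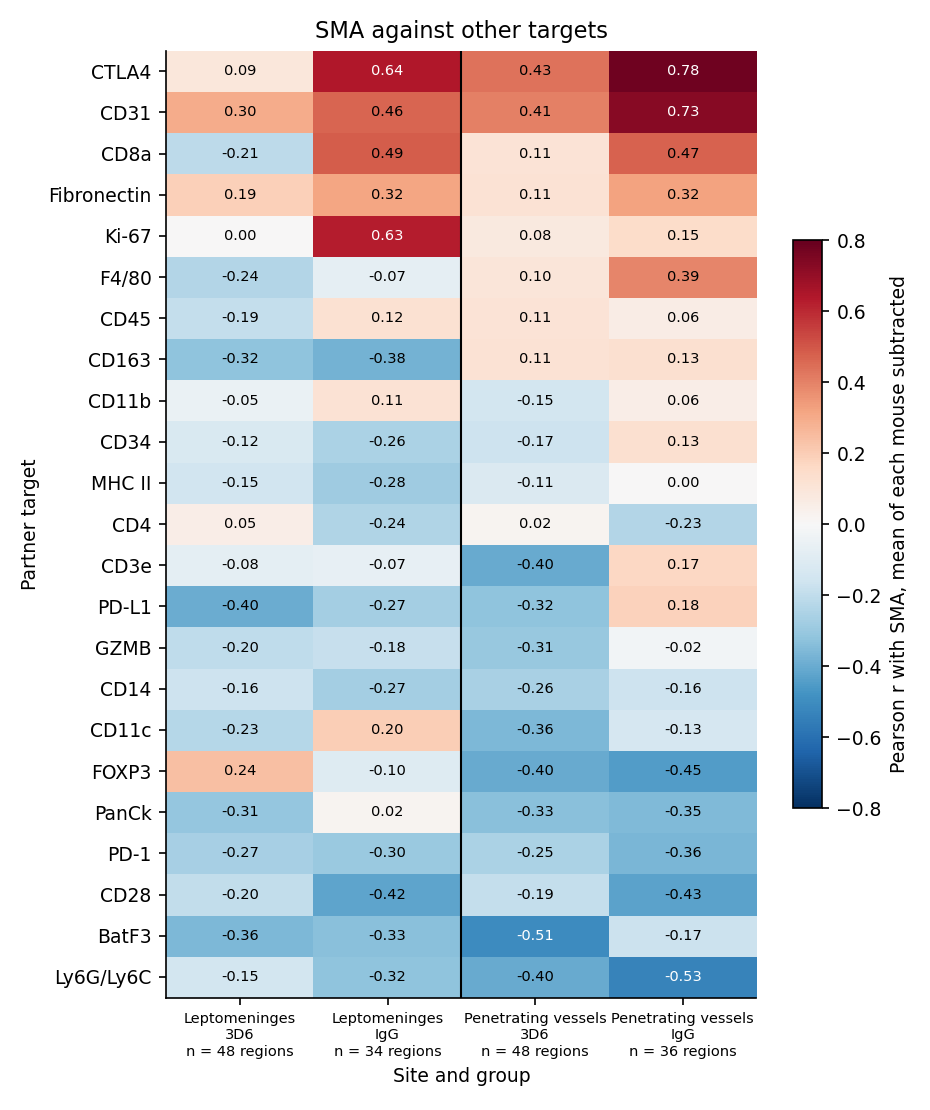
Pearson's r between SMA and other targets over regions, with each mouse centred on its own mean, by site and group (columns), ordered by r over all 166 regions (rows). Red is positive and blue negative. CTLA4 and CD31 are at the top of the order, and the r with CTLA4 runs from 0.09 in the leptomeninges of 3D6 mice to 0.78 on penetrating vessels of IgG mice.

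The number of relations with 1 sign in every mouse is a description, since 1 sign is reached more easily in 3 mice than in 4. Whether any set held more such relations than random signs would give was not tested. In the leptomeninges of 3D6 mice, 2 of 24 targets were positive and 1 negative in all 4 mice, and in those of IgG mice 5 were positive and 1 negative in all 3 mice. On penetrating vessels these numbers were 3 and 5 of 24 in 3D6 mice, and 7 and 4 of 24 in IgG mice. CD31 was positive in each of the 4 sets, and no other target had 1 sign in all mice of all 4.

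No relation of SMA differed between the groups past the threshold. On Fisher's z of the r of each mouse, limma called 0 of 24 partners (0%) in the leptomeninges and 0 of 24 (0%) on penetrating vessels, with 3 and 1 at an unadjusted p under 0.05. The largest differences in the leptomeninges were those of CD8a, at -0.84 (standard error 0.31, adjusted p = 0.176 in limma), and CTLA4, at -0.76 (standard error 0.31, adjusted p = 0.176 in limma). With division by the housekeepers CD8a passed (-1.33, adjusted p = 0.0452 in limma).

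The sign of most relations depended on the divisor. With the negative controls as divisor, 6 of 24 partners had a positive r in the leptomeninges of 3D6 mice and 9 of 24 in those of IgG mice, with 9 and 13 of 24 on penetrating vessels. On counts without normalization, these numbers were 21 and 24, and 24 and 24, and SMA counts then also went with the negative controls themselves, at r = 0.60 in the leptomeninges of 3D6 mice and 0.75 in those of IgG mice. The r with Ly6G/Ly6C on penetrating vessels was 0.18 in 3D6 mice and 0.41 in IgG mice without normalization. With the housekeepers as divisor, 24 and 22 of 24 partners were positive in the leptomeninges of 3D6 and IgG mice, and 18 and 9 of 24 on penetrating vessels. The r with CTLA4 and CD31 was 0.41 to 0.86 with no normalization and 0.57 to 0.86 with the housekeepers, scalings under which a positive r was common.

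SMA also went with the number of nuclei in 1 of the 4 sets. On penetrating vessels of IgG mice the r with log2 nuclei was 0.58, above 0 in 3 of 3 mice, and the r with Histone H3, a housekeeper of the nucleus, was 0.51. In the other 3 sets the r with nuclei lay between -0.01 and 0.09. Whether the number of cells in a region bears on the r with CTLA4 and CD31 was not tested.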

How the data were processed

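Values came from 166 regions of 7 mice. The deposited counts had been scaled by the authors' calibration and positive-control factors and are fractional, and the authors also deposited the number of nuclei as counts and the positive-control ratio of each region. Negative controls had not been divided out. The authors' scaled tables were not used. Log2 ratios to the negative controls had no pseudocount and were averaged over the regions of a mouse, and the SD over regions was analysed as log2 SD. Groups were compared with limma 3.58.1 (R 4.3.3), with Benjamini-Hochberg adjustment over 25 targets (24 partners for r) at 0.05. Exact permutation tests covered the 35 splits. Scripts were tested on simulated data. A target that entered the fits is not reported here. Python 3.11.15 was used for the rest. The target, the partners given in detail (vessel wall, matrix, those the study set beside SMA, the 3 highest and 3 lowest r of each site and group, and the 3 most alike over all regions) and the protein lists were chosen with earlier results of these data known. Each sample was a separate mouse. Alternatives covered normalization, pseudocount, filters on targets and regions, moderation, the readout run and each mouse.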

Additional observations from a re-analysis of the deposited data

Results flagged for a closer look

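The treatment difference in SMA differed between the 2 sites in limma: the leptomeningeal difference minus the penetrating one, each 3D6 minus IgG, was -2.20 on the log2 scale (adjusted p = 0.0417), with the contrast between the sites at 1.20 in 3D6 mice and 3.39 in IgG mice. The call was lost under 10 of 21 alternatives, among them the readout run as a block (adjusted p = 0.0827), the median over regions (adjusted p = 0.175) and leaving out any of 5 of the 7 mice.

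On penetrating vessels, the r of SMA with CD3e was below 0 in 4 of 4 3D6 mice (-0.72, -0.19, -0.18 and -0.19) and above 0 in 3 of 3 IgG mice (0.36, 0.05 and 0.20), with pooled values of -0.40 and 0.17. The difference on Fisher's z was -0.58 and did not pass in limma (adjusted p = 0.524). The opposite signs of the centred values were not kept with other divisors. With the housekeepers they were 0.08 in 3D6 mice and 0.05 in IgG mice, and without normalization 0.22 and 0.53.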

How the results depend on the processing

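SMA kept its direction in the leptomeninges under each of 22 alternatives (-2.63 to -1.47), and it missed the threshold in limma with variances not moderated (-1.79), divided by nuclei (-2.35) and without IgG mouse 29, where leaving out each mouse gave -2.13 to -1.51. On penetrating vessels the difference turned negative with no normalization (-0.55), without regions of few nuclei (-0.0898), with the arithmetic mean of ratios (-0.36) and without IgG mouse 37 (-0.54; each mouse left out, -0.54 to 1.08), and that of the median region did so with no normalization (-1.37). The treatment difference between the sites lost its call with the readout run as a block (-2.06), variances not moderated (-2.20), no normalization (-1.85), the median over regions (-2.27), without regions of few nuclei (-1.34), and without any of 5 of the 7 mice (each of the 7 left out, -2.80 to -1.38). The difference between the sites passed in all 21 alternatives (1.38 to 2.82). For the SD, the penetrating difference turned to 0.11 with the median absolute deviation. The difference between the sites in SD passed under 7 of 19 alternatives. These were without regions of few nuclei (-1.43), without regions of high background (-1.24), with Rt IgG2a alone (-1.23), with Rb IgG alone (-1.46) and without 3D6 mouse 77, 3D6 mouse 81 or IgG mouse 29 (each mouse left out, -1.39 to -0.85). It did not pass under the other 12, among them the housekeepers (-0.60). With division by the housekeepers 1 partner, CD8a, differed in r in the leptomeninges, against 0 as reported. Targets called ranged from 0 to 12 for treatment in the leptomeninges, 0 to 9 for its difference between the sites, 6 to 15 between the sites and 0 to 6 for the leptomeningeal SD. Of 116 values of r, 66 changed sign without normalization, and 46 of 104 did so with the housekeepers. Leaving out regions of high background from the correlations was chosen after seeing the data. IgG mouse 37 had no leptomeningeal region left without those of few nuclei. No paired analysis was possible because the groups share no replicate numbers, and the readout run, which both groups share, was fitted as a block instead. The 7 mice leave the penetrating difference with an interval of -1.35 to 2.15.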
